A study of Homo sapiens with 12 samples.

Results

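MDA-MB-231 is an established human cell line from a triple-negative breast cancer, grown from cells of a pleural effusion. Its control transcriptome was read from 6 RNA-seq libraries of a series of 12, in which UFL1 or UFM1 was targeted with guide RNAs. The 6 were chosen by name, as the columns of the deposited FPKM table that are called sgCtrl: 3 libraries of cells with control guides set beside sgUFL1 (the controls for sgUFL1) and 3 set beside sgUFM1 (the controls for sgUFM1). The other libraries are 3 labelled sgUFL1 and 3 labelled sgUFM1, called knockdown in the title of the series and knockout in its design text. All are total RNA taken in TRIzol from the same line, and no allele, treatment, dose or time apart from the guide is given. The labels name no clone and no separate cultures, so spread and p-values measure differences between these libraries, which may be technical. FPKM scales a read count by gene length and by library size, and so gives a level per length that can be set side by side between genes. CPM scales a count by library size alone and is used to follow 1 gene between libraries.

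The names of 6 libraries differ between the 2 deposited tables, and this touches every value of the controls for sgUFM1. The 3 columns that the FPKM table calls controls for sgUFM1 are proportional, gene by gene, to the count columns called sgUFL1, and the reverse holds for the other 3. The 3 controls for sgUFL1 carry the same name in both tables. With the FPKM names, UFL1, the ligase of the ubiquitin-like modifier UFM1, stood at 11.5 to 13.1 CPM in the 3 sgUFL1 libraries. It stood at 19.7, 24.5 and 30.2 CPM in the controls for sgUFL1 and at 16.6, 19.4 and 18.1 CPM in the controls for sgUFM1, so the sgUFL1 libraries were the lowest. UFM1 stood at 37.1 to 39.7 CPM in the sgUFM1 libraries and at 49.2 CPM or more in all other libraries. A guide can disrupt a protein without removing its RNA, so these levels are only a partial check of the names.

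Cultured carcinoma cells of this kind are known for a mesenchymal shape, loss of E-cadherin and of hormone receptors, active signalling through RAS and MAP kinase, and secretion of proteases and inflammatory cytokines. Metallothioneins are small cysteine-rich proteins that bind zinc and copper. Their genes lie side by side and are switched on through short metal response elements, which the factor MTF1 binds. Transcript GC content, the share of G and C among a transcript's bases, matters for the comparison of the 2 control sets, because it is a property by which libraries of the same cells can differ.

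The 2 metallothionein genes MT2A and MT1X were high in the same 3 of the 6 libraries, and the promoter of MT1X is printed here to show letters that both promoters hold. The window runs from 250 to 51 bases before the RefSeq start (GRCh38.p14, plus strand, chr16:56682220-56682419). Capitals mark TGCGCNC or TGCACNC on either strand, the core letters of the metal response element.
MT1X: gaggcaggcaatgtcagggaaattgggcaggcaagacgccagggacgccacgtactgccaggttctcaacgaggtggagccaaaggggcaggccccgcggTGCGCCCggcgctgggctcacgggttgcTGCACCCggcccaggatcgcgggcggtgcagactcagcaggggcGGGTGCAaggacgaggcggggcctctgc
The MT1X window holds 3 matches and the same window of MT2A holds 5. Of 35116 RefSeq promoter windows of 200 bases, 19.7% held at least 1 match, 0.914% held 3 or more and 0.0683% held 5 or more. A match is a run of letters and does not show that a factor bound there. The element is known from this gene family, and what raised these genes in the 3 libraries was not tested.

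The libraries held 15479597 to 17026646 counts, so that a gene with no count in any of them could stand at up to 0.0312 CPM (3 counts over the 6 libraries, counting error only). The sets do not separate cleanly. Across 11011 genes with a mean of at least 5 CPM, the log2 ratio of 2 libraries had an SD across genes of 0.155 for replicates 2 and 3 of the controls for sgUFM1, the closest pair. Replicate 2 of the controls for sgUFL1 lay nearer to these (SD 0.284 and 0.309) than to replicates 1 and 3 of its own set (0.344 and 0.420). Replicate 1 of the controls for sgUFM1 lay nearest to replicate 1 of the other set (0.285). No pair agreed within sampling noise, and no library was taken as deposited more than once.

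Of 58735 genes in the table, 10948 were at 1 FPKM or more in all 6 libraries, 9950 of them protein-coding. A further 33874 were under 0.1 FPKM in all 6, called silent here, and 29081 of those had no count at all. The remaining 13913 lay between. In the controls for sgUFL1 alone, whose names are not in doubt, 11317 genes were expressed and 36184 silent. The 250 genes at 100 FPKM or more in every library included 231 protein-coding ones.

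Transcripts of the mitochondrial genome headed the list, led by subunits of cytochrome c oxidase. MT-CO1 had a mean of 7086 FPKM over the 6 libraries, MT-CO2 5449 and MT-CO3 5095. MT-ND4L, a subunit of complex I, had 4578 FPKM. The mitochondrial genes together took 4.51, 4.55 and 4.76% of counts in the controls for sgUFL1 and 3.89, 3.55 and 3.42% in the controls for sgUFM1, so the sets did not overlap.

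The most abundant nuclear transcript was MMP1, the interstitial collagenase, which cuts fibrillar collagen and is secreted as a proenzyme. Its levels were 3393, 3217 and 3727 FPKM in the controls for sgUFL1 and 3154, 3039 and 2963 FPKM in the controls for sgUFM1. All 3 values of the second set were below those of the first, yet the log2 difference of -0.16 ± 0.12 (SE) did not pass edgeR's quasi-likelihood test (adjusted p = 0.377). MMP1 alone took 0.567 to 0.755% of all counts of a library. It stood above FTL, the light chain of ferritin (mean 2684 FPKM), and above the translation factor EEF1A1 (2076 FPKM).

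The next nuclear genes were household genes of the cytoskeleton and of metabolism, with a few exceptions. The actins ACTG1 and ACTB had 1317 and 1273 FPKM, GAPDH 1224, the thymosins TMSB10 and TMSB4X 1093 and 858, the chaperone HSP90AB1 1049 and the ribosomal protein gene RPS2 936. Less general members were the metallothionein MT2A (1287 FPKM), IGFBP4, a binding protein that holds insulin-like growth factors (1168 FPKM), and the chromatin protein HMGA1 (844 FPKM). The 25 most abundant genes took 8.08 to 9.27% of counts.

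**Figure D1:**
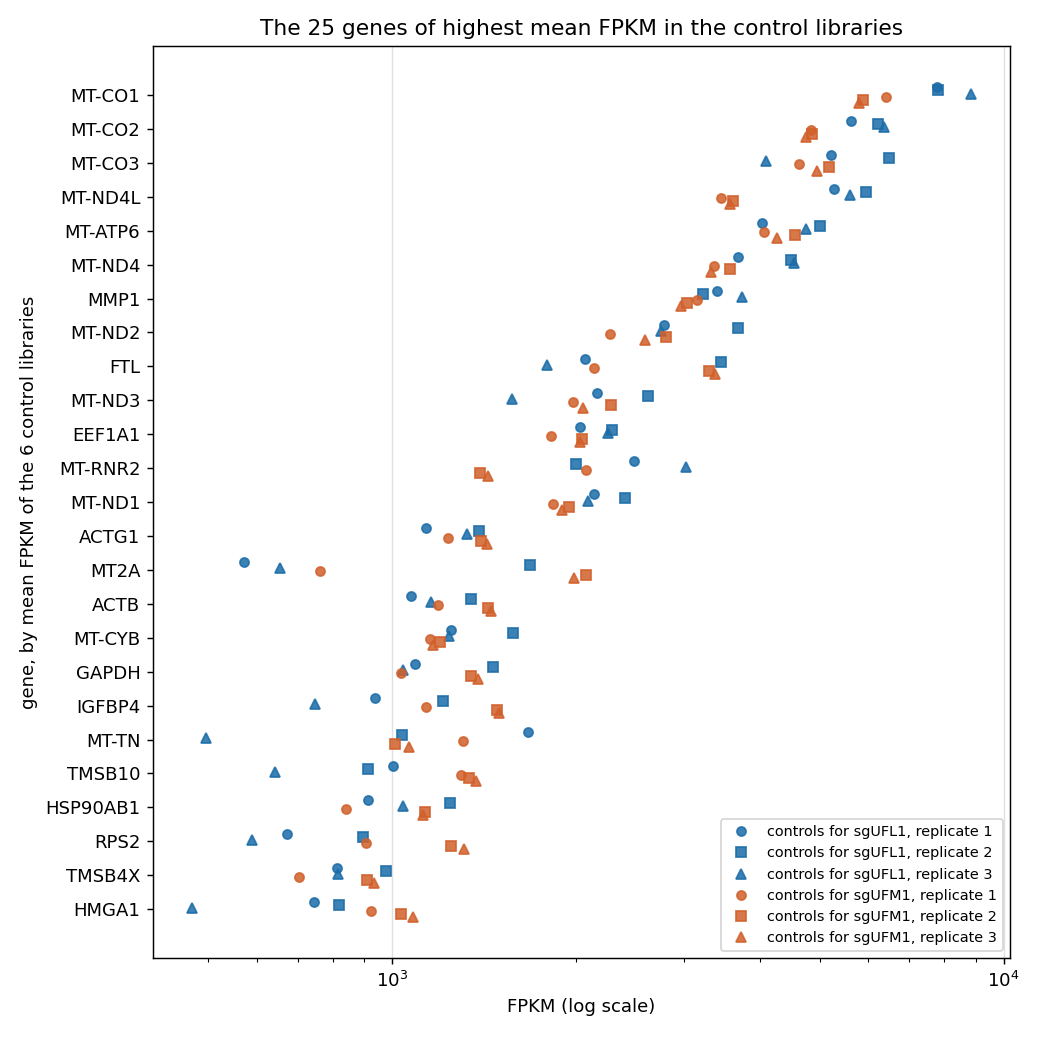
FPKM on a log axis for the 25 genes of highest mean in the 6 control libraries, 1 point per library, with color for the control set and shape for the replicate. MMP1 sits among mitochondrial genes with a narrow spread (2963 to 3727 FPKM), while MT2A splits into 3 libraries at 571 to 761 FPKM and 3 at 1679 to 2078 FPKM, each from both sets.

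The mesenchymal list was largely on: 16 of 20 genes were expressed in all 6 libraries. VIM, the intermediate filament of mesenchymal cells, stood at 159, 206 and 198 FPKM in the controls for sgUFL1 and at 145, 184 and 182 FPKM in the controls for sgUFM1. The groups overlapped. MSN, which ties actin to the membrane, had a mean of 217 FPKM, the receptor kinase AXL 155, the caveola protein CAV1 63.1 and the hyaluronan receptor CD44 58.2. Among the factors that drive the mesenchymal state, ZEB1 (6.29 FPKM) and SNAI2 (4.25 FPKM) were expressed, and TWIST1 and TWIST2 had no count. CDH2, the N-cadherin that often marks this state, stood at 0.0750 FPKM on average.

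The epithelial list was split. E-cadherin, CDH1, had 11 counts over the 6 libraries and 0.0491 FPKM at most, and the epithelial regulators GRHL2 and OVOL1 had no count. Yet 9 of 24 genes of the list were expressed, led by the tight-junction protein CLDN4 (10.4 to 16.2 FPKM). EPCAM, an adhesion protein of epithelia, read 2.77, 3.32 and 2.34 FPKM in the controls for sgUFL1 and 2.34, 3.26 and 2.32 FPKM in the controls for sgUFM1, low in all libraries and above 1 FPKM in each.

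Keratins of simple epithelium were present at high levels, with KRT18 at 85.2, KRT8 at 59.7 and KRT19 at 55.0 FPKM. The luminal factors SPDEF (13.1 FPKM) and FOXA1 (5.47 FPKM) were also expressed. Of the whole luminal list, which holds these keratins and factors, 9 of 22 genes were expressed, 4 were silent and 9 lay between. The estrogen receptor ESR1 was silent, with 37 counts in all and values of 0.0339, 0 and 0.0533 FPKM in the controls for sgUFL1 and 0.0132, 0.0325 and 0.0321 FPKM in the controls for sgUFM1. The progesterone receptor PGR was silent as well (52 counts), and ERBB2 read 5.23 FPKM on average.

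Of the basal list 7 of 20 genes were expressed and 7 were silent. The laminin chain LAMB3 (136 FPKM), the integrin ITGA6 (57.2 FPKM) and EGFR (34.1 FPKM) were high. The basal keratins KRT5 and KRT14 had 1 and 4 counts, KRT6A and KRT6B none, and the basal regulators TP63 and SOX10 25 and 3 counts. Of the other keratins on the list, KRT15 averaged 0.405 and KRT17 0.0440 FPKM.

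**Figure D2:**
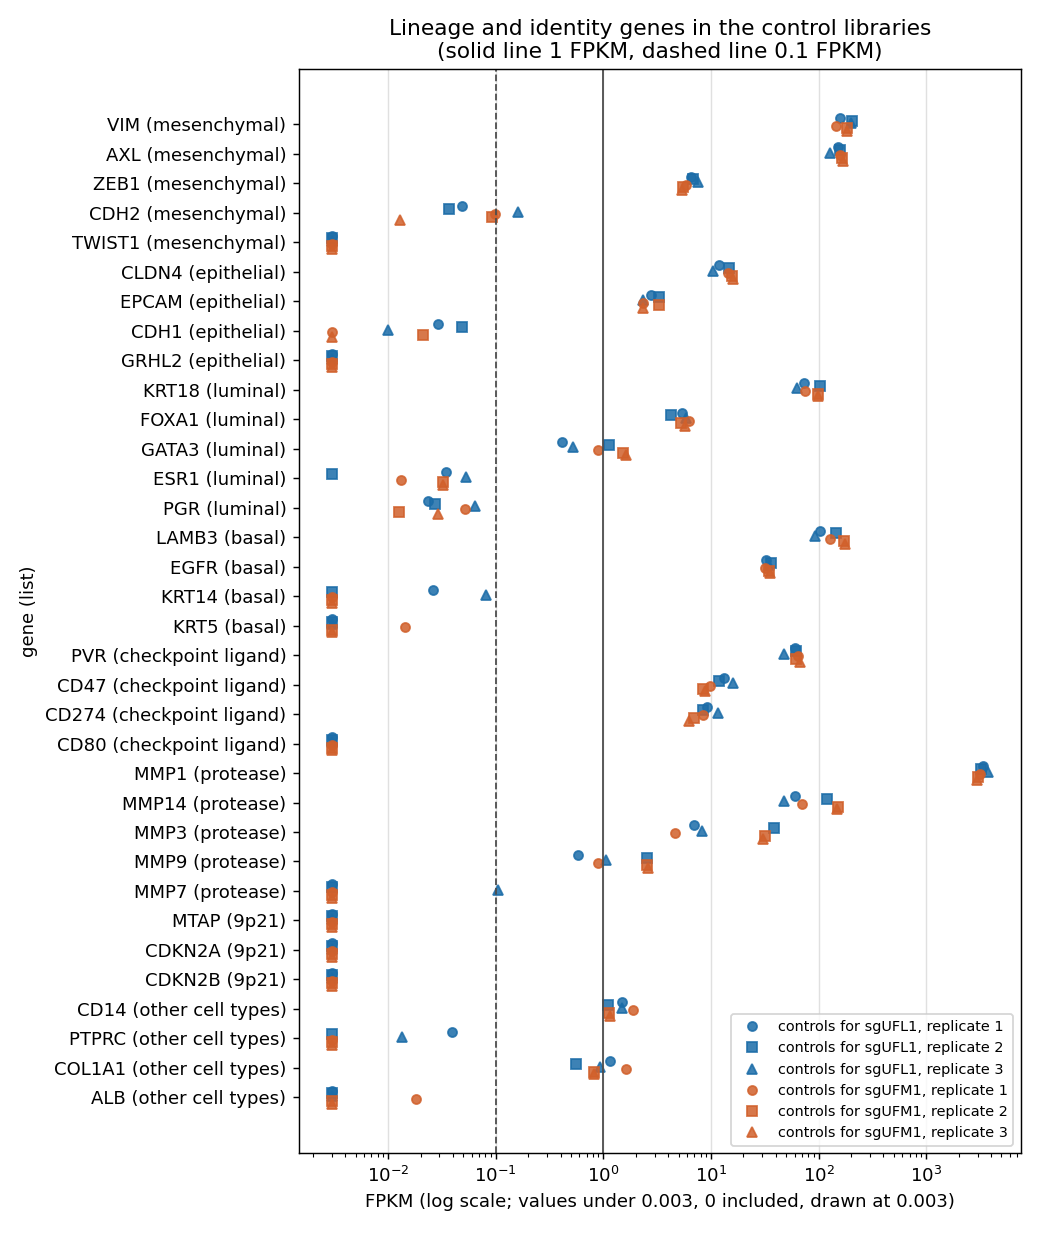
FPKM on a log axis for genes of the identity, checkpoint, protease and 9p21 lists, 1 point per library, with values under 0.003 drawn at 0.003. VIM, KRT18, LAMB3 and PVR lie above 40 FPKM in every library, while CDH1, ESR1, KRT5 and the 3 genes of 9p21 lie left of the dashed line at 0.1 FPKM.

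Genes of matrix breakdown beyond MMP1 were high as well, and 13 of 26 genes of the list were expressed. TIMP1, an inhibitor of metalloproteinases, had a mean of 125 FPKM, the membrane-bound metalloproteinase MMP14 99.8, the plasminogen activator PLAU 88.6 and its receptor PLAUR 53.8. MMP12, MMP17, MMP25 and MMP28 were silent. MMP14 ranged from 47.3 to 150 FPKM, and its 3 high libraries were replicate 2 of the controls for sgUFL1 and replicates 2 and 3 of the controls for sgUFM1.

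All 18 genes of the list of targets and brakes of MAP kinase signalling were expressed. IER3 had a mean of 603 FPKM, the AP-1 subunit FOSL1 182, the receptor EPHA2 163, cyclin D1 (CCND1) 150 and PHLDA1 109. Ligands of EGFR were present beside it, with HBEGF at 75.3 and EREG at 47.7 FPKM. AXL had its ligand gene GAS6 expressed in the same cells (23.7 ± 3.38 FPKM in the controls for sgUFL1, 35.4 ± 4.06 in the controls for sgUFM1, SD, n = 3). Of 20 tested genes on the list of these receptors and ligands, none passed edgeR's test between the sets, against 1.1% of all genes tested. In 5 of the 20 all 3 controls for sgUFM1 lay above all 3 controls for sgUFL1, and in 5 below (17.4 and 15.7% of all genes). HGF, the ligand of MET, had no count. CYR61 and CTGF, secreted matrix proteins and known targets of YAP, stood at 727 and 173 FPKM.

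Of a list of 25 cytokine genes and other targets of NF-kB, 20 were expressed in all libraries, and the 5 highest were cytokines. IL11, a cytokine of the IL-6 family, had a mean of 217 FPKM, the chemokine CXCL1 182, IL1B 162, the granulocyte factor CSF3 136 and CXCL8 132. CSF3 read 43.4, 209 and 44.2 FPKM in the controls for sgUFL1 and 51.5, 232 and 234 FPKM in the controls for sgUFM1. Within each set, values differed by over 4-fold, and high and low libraries came from both sets.

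Genes that tumor cells present to immune cells were mixed. PVR and NECTIN2, ligands of TIGIT and related receptors, had means of 60.7 and 29.8 FPKM. CD47, the signal against phagocytosis, read 11.3 FPKM. CD274, which encodes PD-L1, read 9.27, 8.47 and 11.7 FPKM in the controls for sgUFL1 and 8.46, 7.01 and 6.20 FPKM in the controls for sgUFM1. The second set lay below the first, by a narrow margin at its highest library, with a log2 difference of -0.43 ± 0.16 (SE) that did not pass edgeR's test (adjusted p = 0.130). The costimulatory ligands CD80 and CD86 had 0 and 7 counts.

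Antigen presentation by class I was on in 16 of 17 genes: CALR, which loads peptides as a chaperone, had 348 FPKM, B2M 83.5 and HLA-E 79.4. Of class II, only 2 of 10 genes were expressed, and CD74, the invariant chain, led them with 27.1 FPKM. HLA-DQA1 and HLA-DQB1 had no count.

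Cell cycle genes were expressed throughout, 24 of 24 for G2 and M and 22 of 22 for G1 and S. CDC20 had a mean of 141 FPKM, CCNB1 118 and PCNA 186. Of 79 genes of cytosolic ribosomal proteins all were expressed, with a median of 191 FPKM. Of 24 cancer-testis genes, which are normally limited to the germ line, 4 were expressed and 14 silent. MAGEA6 led them (44.6 to 53.1 FPKM). XAGE1A was uneven: it read 21.1 FPKM in replicate 1 of the controls for sgUFM1 and 0.283 to 1.03 FPKM in the other 5 libraries.

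Most markers of other cell types were low, with exceptions on the endothelial list. None of 12 fibroblast genes reached 1 FPKM in all libraries, and COL1A2, LUM and POSTN had 2, 1 and 3 counts. Of 16 leukocyte genes only CD14 did (1.09 to 1.88 FPKM), while PTPRC, the pan-leukocyte antigen CD45, had 8 counts. Of 12 endothelial genes 3 were expressed, ESAM at 41.0 and ROBO4 at 6.75 FPKM among them, and CDH5, ERG and EMCN had no count.

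Lineage genes of tissues outside the breast, and milk genes, were mostly silent. Over 12 lists with 95 genes, 67 were silent, 44 of them without a count, 22 lay between and 6 were expressed. Genes of pancreas and of intestine were silent without exception, 8 of 8 each. INS, CDX2, NANOG, GATA1, MYOD1, KLK3 and the milk proteins CSN2 and LALBA had no count. The expressed genes included transcription factors with roles in several tissues: PPARG, the regulator of fat cells, read 15.2 FPKM, MITF 12.4 and NKX2-1 4.23. They also included the transporter SLC45A3 (9.97 FPKM) and the protease inhibitor SERPINA1 (6.00 FPKM).

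In a stretch of chromosome 9 (9p21) no protein-coding gene had a count. From the end of FOCAD to ELAVL2, all 24 protein-coding genes (chr9:20999515-23826337, GRCh38) had 0 counts in the 6 controls and in all 12 libraries. They include CDKN2A and CDKN2B, inhibitors of the cyclin D kinases, MTAP, which salvages methionine from methylthioadenosine, KLHL9, HACD4 and the type I interferon genes. MTAP and KLHL9 are active in most tissues, whereas the interferon genes are silent without infection. On one side FOCAD was low (0.119 to 0.198 FPKM) and MLLT3 expressed (1.70 FPKM on average). On the other side the first expressed gene was TUSC1 (4.18 FPKM). RNA counts do not show whether DNA is missing.

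Some household genes were low in every library, and they overlap other annotated genes. ALDOA, an aldolase of glycolysis, read 0.990 to 2.29 FPKM, and 42.3% of its exon bases lie in another gene on the same strand, AC093512.2. RPS10 read 1.39 to 2.61 FPKM, with 39.4% of its exon bases inside RPS10-NUDT3. How reads in shared exons were counted is not given in the sources used here, and the part of the overlap in these levels was not tested.

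Libraries of the same set differed by over 2-fold in 195 of 9430 genes with a mean of at least 10 CPM (2.07%) for the controls for sgUFL1 and in 95 of 9480 (1.00%) for the controls for sgUFM1. Among the genes that reached this mean, the widest gap in the first set was that of ALDH1A2 and in the second that of SPP1. ALDH1A2, which makes retinoic acid, read 19.6, 0.305 and 20.6 CPM in the controls for sgUFL1 and 18.3, 0.132 and 0.195 CPM in the controls for sgUFM1. PGM5, an adhesion protein of the phosphoglucomutase family, read 18.0, 1.04 and 18.6 CPM and then 17.8, 1.06 and 0.389 CPM in the same order. In the second set both averaged under 10 CPM and were not ranked, though their gaps there were wider than that of SPP1. Both were low in replicate 2 of the first set and in replicates 2 and 3 of the second.

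SPP1, MMP3 and MT1E had the opposite pattern and were high in those same 3 libraries. SPP1, the matrix protein osteopontin, read 7.23, 97.1 and 10.7 CPM in the controls for sgUFL1 and 10.4, 97.5 and 90.8 CPM in the controls for sgUFM1. MMP3, the stromelysin that can activate MMP1, read 14.5, 78.6 and 17.1 CPM and then 9.67, 66.0 and 63.4 CPM. MT1E, the metallothionein of widest spread, read 40.1, 257 and 45.5 CPM and then 44.6, 236 and 217 CPM.

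The genes with printed or counted promoter windows followed MT1E with smaller steps. MT2A read 571, 1679 and 655 FPKM in the controls for sgUFL1 and 761, 2078 and 1979 FPKM in the controls for sgUFM1. MT1X, far lower, read 3.40, 7.73 and 4.34 FPKM and then 5.81, 10.7 and 11.1 FPKM. In both the 3 high libraries were again replicate 2 of the first set and replicates 2 and 3 of the second. The airway mucin MUC5B was low in these 3, at 27.4, 7.25 and 22.9 CPM and then 47.5, 9.51 and 11.2 CPM. U2AF1L5, a near-identical copy of the splicing factor U2AF1, departed from the pattern (25.2, 4.81, 3.88, 6.38, 23.8 and 5.39 CPM), and its reads cannot be assigned with certainty.

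**Figure D3:**
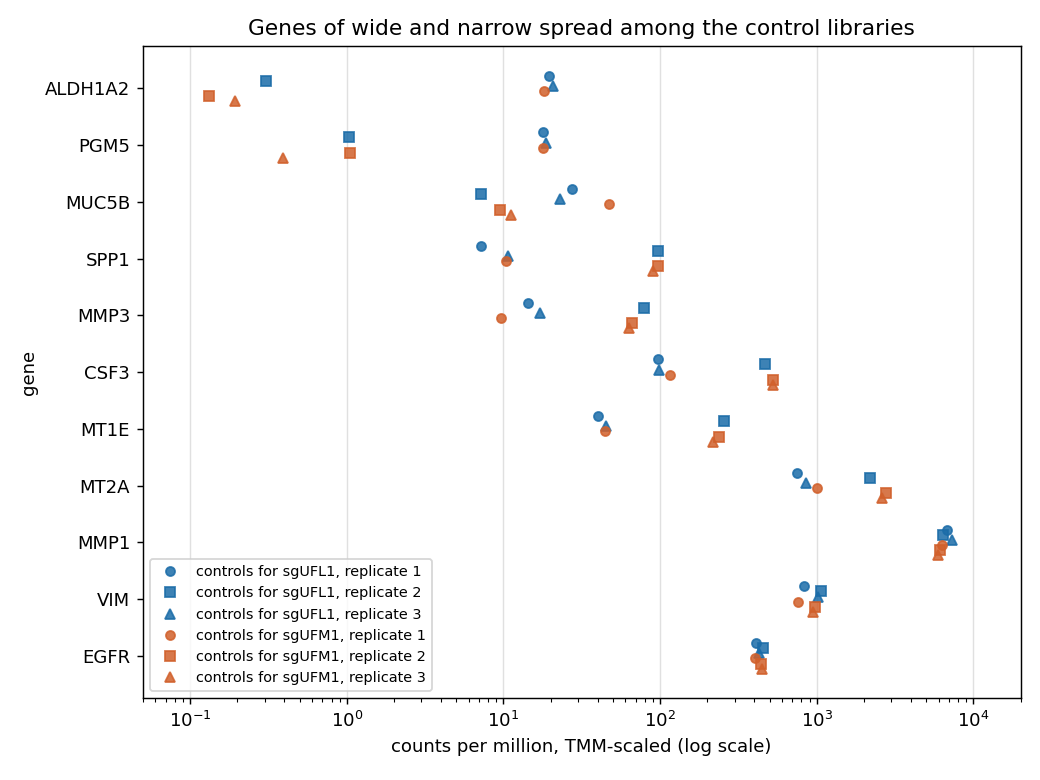
TMM-scaled CPM on a log axis for genes of wide spread within the sets and, below them, for MMP1, VIM and EGFR, 1 point per library. Squares of both colors and the orange triangle lie together, apart from both circles and the blue triangle, for each of the upper 8 genes, so replicate 2 of the controls for sgUFL1 sits with replicates 2 and 3 of the controls for sgUFM1.

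None of these genes passed the test between the sets, since each set holds both levels. The log2 difference, controls for sgUFM1 minus controls for sgUFL1, was 0.79 ± 0.94 (SE) for SPP1 and -1.11 ± 1.33 for ALDH1A2 (edgeR adjusted p = 0.603 and 0.605). No label or header names what the 3 libraries share, and libraries were not regrouped by these levels.

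The comparison of the 2 control sets asks how far libraries with the same nominal content differ. By edgeR's quasi-likelihood test at an adjusted p of 0.05, 162 of 14996 genes tested were higher in the controls for sgUFM1 (1.08%) and 3 were lower (0.02%), together 1.1%. All calls stood close to the threshold, with a smallest adjusted p of 0.0453, and 35 of the 162 differed by at least 2-fold. At an unadjusted p of 0.05, 4205 genes passed (28.0%). In 2609 genes (17.4%) all 3 controls for sgUFM1 lay above all 3 controls for sgUFL1, and in 2360 (15.7%) below. The number of calls moved with single libraries. It was 0 higher and 0 lower without replicate 1 of the controls for sgUFL1 or without replicate 2 or 3 of the controls for sgUFM1, and 1 higher and 0 lower without replicate 3 of the controls for sgUFL1. It was 1643 higher and 776 lower without replicate 2 of the controls for sgUFL1, and 363 and 16 without replicate 1 of the controls for sgUFM1.

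The difference followed GC content. Across the tested genes, Spearman's rho of the log2 difference with GC content was 0.761, and with gene length -0.221 (a description across genes, which are not replicates). Cut into 10 bins of 1499 genes, the median log2 difference ran from -0.35 in the bin of lowest GC content (median 38.3%) to 0.57 in the highest (median 63.6%). The bin of highest GC content held 128 of the 162 genes called higher. In it 64.3% of genes had all 3 controls for sgUFM1 above all 3 controls for sgUFL1, against 0.534% in the lowest bin.

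The coding stretches of a gene called higher and of one called lower, chosen for their distant GC content, are printed to show the range of composition. Each is the middle 90 bases of the annotated coding sequence (GENCODE release 29, plus strand), with G and C in capitals. C4orf48, a short secreted protein gene, lies at chr4:2041993-2043970 and SCOC, a coiled-coil protein of the Golgi, at chr4:140257286-140385726.
C4orf48: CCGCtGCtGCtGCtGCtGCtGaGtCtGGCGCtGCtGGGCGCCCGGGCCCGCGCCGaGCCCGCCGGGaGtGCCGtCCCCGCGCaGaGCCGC
SCOC: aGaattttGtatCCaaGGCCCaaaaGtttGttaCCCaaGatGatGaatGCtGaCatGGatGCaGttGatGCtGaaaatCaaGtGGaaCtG
The C4orf48 stretch holds 81.1% G and C and the SCOC stretch 40% (36 of 90 bases), while the whole coding sequences hold 76.3 and 48.0%. The same stretch was less distant in another pair, with 47.8% in FAM207A, called higher, and 41.1% in MT-ND4L, called lower. Over all transcripts of each gene the GC content was 73.8% for C4orf48 and 35.7% for SCOC.

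The trend was also present between single libraries. For the 9 pairs of 1 library from each set, rho of the log2 ratio with GC content was between 0.499 and 0.868, always with the controls for sgUFM1 higher at high GC content. Within the controls for sgUFL1, replicate 3 departed from the other 2 (rho -0.713 against replicate 1 and -0.568 against replicate 2), and those 2 differed little (0.0640). Within the controls for sgUFM1 rho was 0.0280, 0.132 and 0.237. The mean GC content of counted transcripts was 49.2, 49.4 and 48.3% in the controls for sgUFL1 and 50.3, 50.4 and 50.5% in the controls for sgUFM1, with no overlap.

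**Figure D4:**
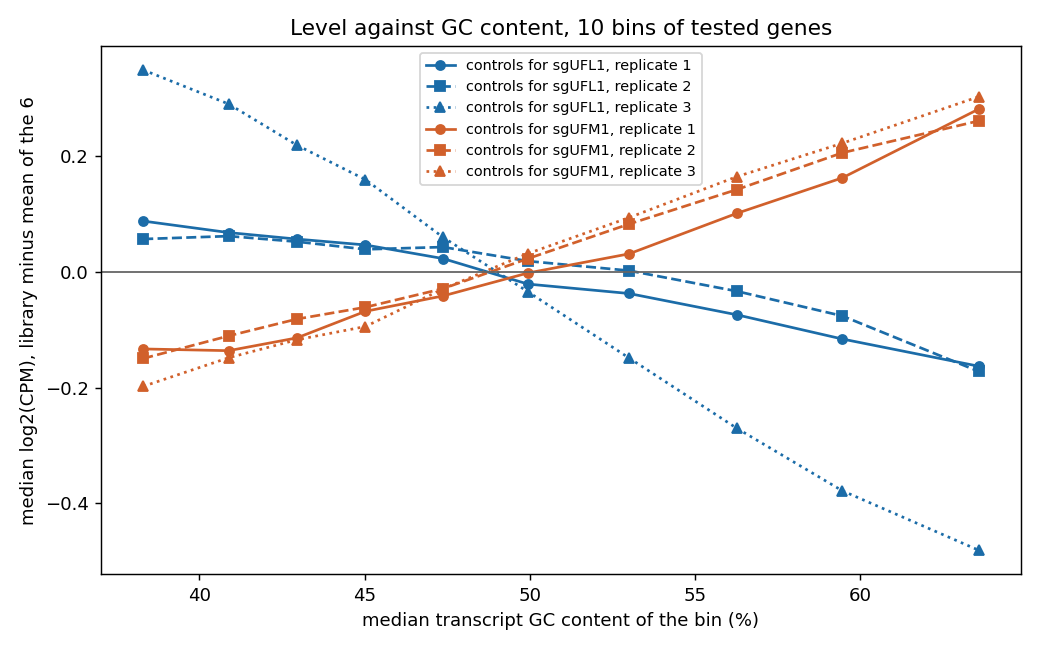
Median log2 CPM of each control library minus the mean of the 6, for 10 bins of tested genes ordered by transcript GC content (x axis, median of the bin in percent), 1 line per library. The 3 controls for sgUFM1 rise with GC content and the 3 controls for sgUFL1 fall, replicate 3 most, from 0.35 in the lowest bin to -0.48 in the highest.

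Of 5 measures taken per library, none could pass 0.05, since an exact two-sided permutation test of 3 against 3 cannot go below 0.1. Mean GC content (48.98% ± 0.570 against 50.4% ± 0.122, SD, n = 3) and the mitochondrial share (4.61% ± 0.134 against 3.62% ± 0.241) reached that limit (exact p = 0.1, 0.25 after Benjamini-Hochberg adjustment over the 5). The share of ribosomal protein genes was 5.30% ± 0.548 against 6.10% ± 0.469 (exact p = 0.2, adjusted 0.333). The share of the 50 highest genes (exact p = 0.3) and the number of genes with a count (exact p = 0.9) overlapped between the sets.

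With offsets that remove each library's trend with GC content and length, rho was -0.013, which follows from how the offsets are built. No gene passed edgeR's test with them. At an unadjusted p of 0.05, 894 genes then passed, against 4205 without offsets. The offsets assume that the trend belongs to the libraries and not to the cells, and that was not tested.

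Of the 10 protein-coding genes named by rule as most increased in the controls for sgUFM1, TAF10 led. TAF10, a subunit of the transcription factor TFIID, read 7.11, 5.36 and 3.39 CPM in the controls for sgUFL1 and 21.6, 23.4 and 27.4 CPM in the controls for sgUFM1 (log2 difference 2.19 ± 0.24, SE, edgeR adjusted p = 0.0453). MRPL12, a mitochondrial ribosomal protein, read 12.7, 11.5 and 6.04 CPM and then 38.8, 41.2 and 41.3 CPM (2.00 ± 0.23). The sets lay far apart in both, and with the offsets the differences were still 2.01 for TAF10 and 1.34 for MRPL12.

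GPS2, a subunit of a corepressor complex, differed by 2.11 on the log2 scale, and PSENEN, a subunit of gamma-secretase, by 1.86. The hydrolase gene NUDT3 differed by 1.59, SRXN1, which repairs peroxiredoxins, by 1.51, and the phosphatase PDXP by 1.41. FAM207A differed by 1.34, as did the disulfide isomerase TXNDC5, and C4orf48 by 1.31. The offsets moved C4orf48 to 0.20 and FAM207A to 0.67, the 2 of highest GC content, and left NUDT3 at 1.78 and TXNDC5 at 1.30.

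Several of these genes share exons with a neighbor. In MRPL12, SRXN1, PDXP and TXNDC5, 60.6 to 85.0% of exon bases lie in another gene on the same strand, such as BLOC1S5-TXNDC5 for TXNDC5. That is 4 of 10 with at least 50% of their bases shared, counting overlap on the same strand only. It holds for 6 of all 160 protein-coding genes called higher (3.75%). Of the 34 of these with at least a 2-fold difference it holds for 6 (17.6%), and of 12591 protein-coding genes tested for 0.810%. On the other strand, which these counts leave out, TAF10 shares 38.9% of its exon bases with ILK, and NUDT3 71.6% with AL354740.1. Library strand is not given in the sources used here, and the part of the overlaps in the differences was not tested.

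Only 3 genes were lower in the controls for sgUFM1. MT-ND4L read 1583, 1778 and 1668 CPM in the controls for sgUFL1 and 1034, 1095 and 1071 CPM in the controls for sgUFM1 (log2 difference -0.65 ± 0.11, edgeR adjusted p = 0.0487). SCOC read 84.4, 83.4 and 91.7 CPM and then 59.2, 59.6 and 60.9 CPM (-0.53 ± 0.10). The zinc finger gene ZNF512 differed by -0.67 ± 0.13. In each, the sets did not overlap. With the offsets the differences were -0.56 for MT-ND4L, -0.49 for ZNF512 and -0.13 for SCOC, and none was called.

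Of 582 tested genes on the lists, 12 passed, against 1.1% of all genes tested. JUNB and JUND, AP-1 subunits made from GC-rich genes without introns, were higher in the controls for sgUFM1. JUNB read 52.5, 55.0 and 45.9 CPM in the controls for sgUFL1 and 85.4, 94.6 and 106 CPM in the controls for sgUFM1 (0.90 ± 0.12). JUND differed by 0.63 ± 0.11, and the NF-kB subunit RELB by 0.73 ± 0.14. With the offsets JUNB fell to 0.22 and RELB to 0.10, and JUND turned to -0.25.

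The others higher were genes of protein synthesis, respiration and metabolism. The ribosomal protein genes RPL26 and RPS28 differed by 0.94 and 0.80, the respiratory subunits COX8A and ATP5F1D by 1.02 and 0.73, and the lactate transporter SLC16A3 by 0.92. MVD of cholesterol synthesis differed by 0.76 and SDF2L1 of the endoplasmic reticulum by 0.71. SRXN1 and MT-ND4L complete the 12. With the offsets none of these was called. RPL26, with a GC content of 45.2%, then differed by 1.05 (adjusted p = 0.163), COX8A by 0.58 and RPS28 by 0.46. SLC16A3 differed by 0.31, MVD by 0.18, ATP5F1D (67.6% GC) by -0.04 and SDF2L1 by -0.05.

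**Figure D5:**
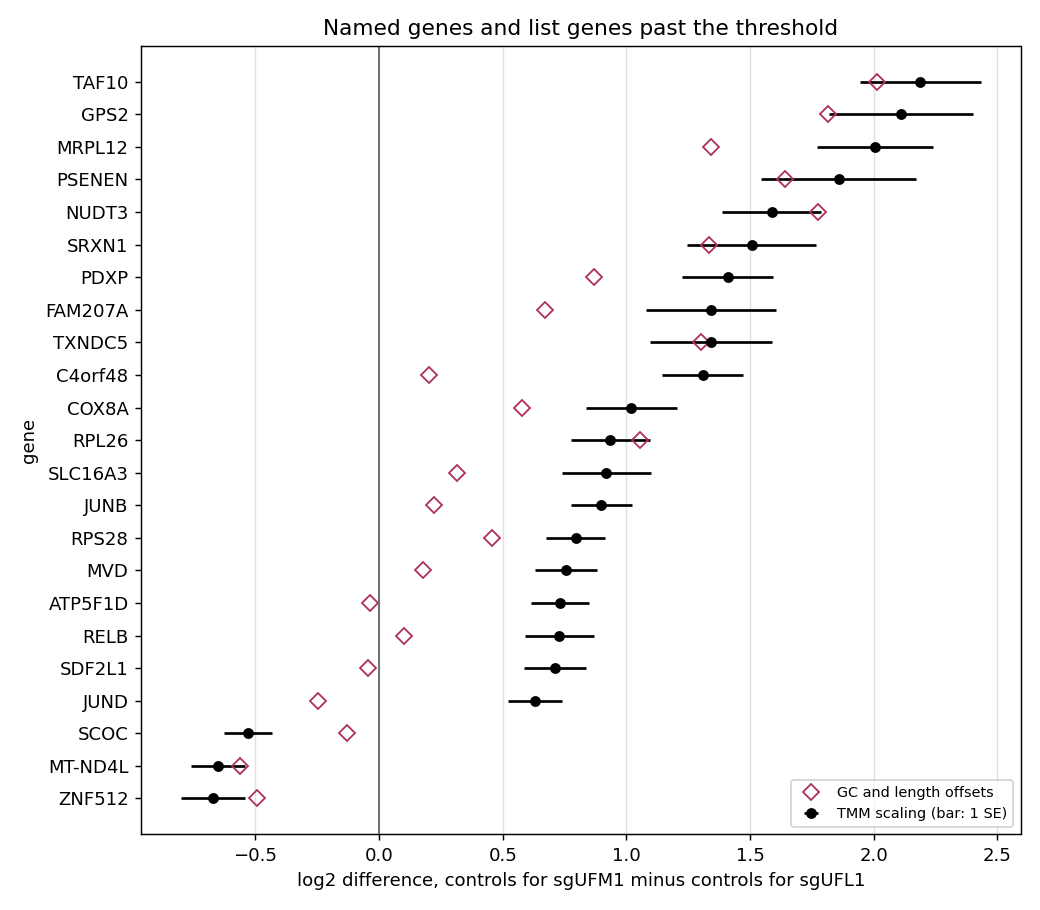
Log2 difference between the control sets (x axis, controls for sgUFM1 minus controls for sgUFL1) for the named genes and the list genes past the threshold, as filled points with bars of 1 SE, and with offsets for GC content and length as open diamonds. TAF10, GPS2, NUDT3, TXNDC5 and RPL26 stay near their first value, while C4orf48, JUNB, RELB and SDF2L1 move toward 0 and JUND passes it.

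The medians of the lists of immediate early genes and of G2 and M genes leaned in opposite directions. Of their 23 and 24 tested genes, 2 and 0 were called, against 1.1% of all genes tested. The immediate early list had a median log2 difference of 0.34 and a median GC content of 56.8%, with 9 of 23 tested genes higher without overlap (17.4% of all genes) and a median of 0.01 with offsets. The list for G2 and M had a median of -0.17 at 43.1% GC, with 9 of 24 genes lower without overlap (15.7% of all genes), and -0.0030 with offsets. For all genes tested the median was -0.01 at 48.7% GC. Of the cytosolic ribosome list, 19 of 79 genes were higher without overlap and 2 lower. Its median was 0.23 at 49.9% GC, and 0.14 with offsets. The nuclear genes of oxidative phosphorylation had 19 of 49 higher without overlap and 2 lower. Their median was 0.29 at 51.2% GC, and 0.15 with offsets. The mitochondrial genome had a median of -0.25, and -0.16 with offsets, and 6 of its 13 genes were lower without overlap.

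Genes of UFMylation, the pathway that the series targeted, gave no call among 10 tested, against 1.1% of all genes tested. UFL1 differed by -0.45 ± 0.17 and UFM1 by -0.28 ± 0.11 (edgeR adjusted p = 0.130 and 0.152), and both transcripts are poor in GC (38.2 and 36.8%). With offsets the values were -0.10 and 0.09. DDRGK1, the membrane anchor of the ligase, differed by 0.90 ± 0.26 at a GC content of 58.2% (adjusted p = 0.087). The bin of GC content that holds DDRGK1 had a median log2 difference of 0.38. Of the 10 genes on the UFMylation list, 2 were higher and 4 lower without overlap (17.4 and 15.7% of all genes). The median of the list was -0.18, and 0.07 with offsets.

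Chromosomes differed as well. The median log2 difference was lowest on chromosome 4 (-0.23, median GC content 43.3%) and highest on chromosome 19 (0.34, 58.4%). Of 1048 genes tested on chromosome 19, 40 were called higher, against 162 of all 14996 genes tested (1.08%). Chromosome 16 had 20 of 675 called higher (median GC content 55.6%) and chromosome 22 had 9 of 345 (55.6%). With offsets the medians of the 23 nuclear chromosomes lay between -0.05 and 0.07.

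Under the names of the count table, which put 3 other libraries in the place of the controls for sgUFM1, the comparison gave 2641 genes higher (17.4% of 15175) and 2797 lower (18.4%). Its rho with GC content was 0.752, and with offsets 600 genes were higher (3.95%) and 469 lower (3.09%). Both comparisons share the 3 controls for sgUFL1. Whether the sets differ as controls or by a guide cannot be told apart from the 2 tables.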

How the data were processed

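Libraries were grouped by the titles in the labels. The submitters' processing notes name GRCh38, featureCounts 2.0.0, STAR 2.7.7a and fastp 0.20.1 without saying how each was set. Of the 2 deposited tables, one gives unnormalized read counts and the other FPKM values computed by the authors, for 12 libraries each. Every FPKM column was matched to the count column it is proportional to after multiplying by gene length; 6 names were alike and 6 exchanged, and the names of the FPKM table were used. All 58735 genes are in GENCODE release 29, and GC content was pooled over each gene's transcripts (58676 genes).

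Levels are the deposited FPKM. For the control sets, edgeR 4.0.16 under R 4.3.3 was run on the counts (filterByExpr, TMM factors, quasi-likelihood F test), after being tested on simulated data, and p was adjusted by Benjamini-Hochberg over all genes tested, at 0.05. Alternatives were other scalings and filters, DESeq2 1.42.0, limma 3.58.1 on log2(FPKM + a pseudocount of 0.1, 0.5 or 1), all 12 libraries, a replicate block, lowess offsets for GC content and length (span 0.3), the names of the count table and leaving out each library. The offsets joined with the block or with the names of the count table were added after the data were seen. Named genes are the 25 of highest mean FPKM, marker genes, the 5 highest and the silent members of each of 44 lists, the 10 largest differences in each direction among called protein-coding genes of at least 5 CPM without overlap (3 existed for lower), up to 4 called genes per list, the 5 of widest spread per set, UFL1 and UFM1. ALDOA, RPS10, MT1X, GAS6, DDRGK1 and the genes beside 9p21 were singled out after their values were seen. The members and lists were chosen with earlier results of these data known. Promoter windows come from RefSeq (GRCh38.p14); MT2A and MT1X were matched by symbol.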

Additional observations from a re-analysis of the deposited data

How the results depend on the processing

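The number of genes called between the control sets depended on nearly every setting. Against 162 higher and 3 lower, RLE scaling gave 0 and 0, upper-quartile scaling 11 and 1, a minimum of 1 CPM in 3 libraries 296 and 10, no filter 1508 and 413, DESeq2 1239 and 457, and a fit of all 12 libraries 1992 and 1471. The GC and length offsets gave 0 and 0, as did limma with each of the 3 pseudocounts and without a filter. The names of the count table gave 2641 and 2797, and with offsets 600 and 469. Leaving out 1 library gave 0 to 1643 higher and 0 to 776 lower. The cause of these changes was not tested.

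Fitted with a replicate block, 0 genes were called in either direction, and the block with offsets also gave 0 and 0. Deviations of same-numbered libraries from their set means correlated at 0.556, 0.636 and -0.455, so the numbers do not pair the sets, and not every library correlated best with its own number.

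List genes called numbered 12, and 0 with RLE scaling, the block, the offsets, the block with offsets and limma. They numbered 2 with upper-quartile scaling, 108 without a filter, 93 with DESeq2, 158 with all 12 libraries, 262 under the names of the count table, 106 under those names with offsets, and 0 to 149 with 1 library left out.

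Spearman's correlation of the difference with GC content across genes, 0.761, was 0.360 without a filter, 0.361 with DESeq2, 0.512 with limma without a filter, -0.0131 with offsets, -0.00876 with block and offsets and -0.0135 under the names of the count table with offsets. The range of chromosome medians, 0.576, was 0.118 with offsets. With offsets, with block and offsets and under the names of the count table with offsets, differences reversed to -0.25, -0.24 and -0.23 for JUND, -0.038, -0.036 and -0.19 for ATP5F1D and -0.045, -0.041 and -0.088 for SDF2L1. In the last of these settings SCOC reversed to 0.20, RELB to -0.31 and JUNB to -0.0095. The difference in genes with a count, 112, ranged from -325.3 to 386.7 with 1 library left out. Counts of expressed and silent genes stayed within 1.5 times under all thresholds tried. The exchange of names, 3 libraries a set and the unstated counting of shared exons limit every difference.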
